A study of Mus musculus with 81 samples.

Results

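Voltage-gated potassium (Kv) channel alpha subunits were defined here as the protein-coding mouse genes whose symbol is Kcna, Kcnb, Kcnc, Kcnd, Kcnf, Kcng, Kcnh, Kcnq, Kcns or Kcnv followed by a number, which gave 40 genes of the 21664 protein-coding genes of the annotation. Their mRNA was measured in CA1 pyramidal neurons (PNs), CA3 PNs and dentate granule cells (DGCs), cut from Nissl-stained sections of the rostral hippocampus by laser capture microdissection (LCM) and sequenced as total RNA. The mice were males of 6 months of age (MO), either disomic (2N) or Ts65Dn (Ts), a line with an extra minichromosome that carries a segment of chromosome 16 and a centromeric segment of chromosome 17. Their dams were fed a choline normal diet (ChN, 1.1 g/kg choline chloride) or a choline supplemented diet (ChP, 5.0 g/kg) from E0 until weaning, after which all offspring had the control diet. There were 81 libraries of 28 mice, and most mice gave all 3 populations. CA1 PNs had 6 libraries of 2N ChN, 5 of Ts ChN, 7 of 2N ChP and 9 of Ts ChP mice. CA3 PNs had 6, 6, 7 and 7 libraries of the same groups, and DGCs had 6, 6, 7 and 9. All mice shared the mixed C57Bl/6J Eicher and C3H/HeSnJ background of the breeders.

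Kv channels are tetramers of alpha subunits that open when the membrane depolarizes and let potassium out of the cell, which repolarizes the neuron and sets how often and how long it fires. The Kv1 (Kcna), Kv2 (Kcnb), Kv3 (Kcnc) and Kv4 (Kcnd) families are the relatives of the fly genes Shaker, Shab, Shaw and Shal, and carry delayed rectifier and A-type currents in axons, cell bodies and dendrites. The Kv7 family (Kcnq) carries the M-current, which is shut by muscarinic receptors and restrains repetitive firing. The Kcnh genes (Kv10, Kv11 and Kv12) encode the ether-à-go-go channels Eag, Erg and Elk. The Kcnf, Kcng, Kcns and Kcnv genes encode silent subunits, which form no channel alone but change the behavior of Kv2 channels when they join them.

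Libraries held 358355 to 4744036 expected counts in total, and the 40 genes held 1238 to 16065 of these counts, or 0.303 to 0.442% of a library. Marker lists placed the CA3 PN and DGC libraries where their labels do, but 10 of the 27 CA1 PN libraries carried mRNA of CA2 pyramidal markers at a mean log2 CPM (counts scaled to library size) of over 5. These 10 libraries were spread over the 4 groups of mice. Their CA3 marker mean ran from 3.39 to 5.68, against 0.969 to 2.83 in the other 17 CA1 libraries. The CA1 marker mean ran from 2.09 to 7.13 in the 10 libraries and from 7.36 to 7.76 in the 17. The CA3 library of mouse 15-140 (Ts ChP) had a dentate marker mean of 4.20, and the median of CA3 libraries was 1.81. Genes of the triplicated chromosome 16 segment averaged 0.298 to 0.703 above the 2N median (log2) in Ts libraries and from -0.204 to 0.620 in 2N libraries, with 1 2N library, of CA1 PNs, inside the Ts range. The title, tissue and genotype labels of the CA3 library of mouse 15-145 all say Ts, while the mouse's other libraries are labelled 2N. It was kept with the 2N group from the mouse number in its library name, and results that rest on it are also given under its own label. Its mean over the chromosome 16 segment was below that of every library grouped as Ts, as the only 2N library inside the Ts range is of CA1 PNs. No Kv alpha subunit gene lies on chromosome 16. Kcnh8 and Kcng3 are on chromosome 17, at 52909271 to 53287275 and 83892840 to 83939455 (GRCm39).

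Levels were compared between genes on a per-length scale, as TPM (transcripts scaled to gene length and library size). In CA1 PNs, Kcnd2, an A-type channel of dendrites, had a median of 66.8 TPM (18.5 to 94.9 over 27 libraries), Kcnq3, an M-channel subunit, 51.8 TPM (7.76 to 85.3) and Kcnh7 38.1 TPM (1.23 to 66.8). These ranges overlap, so the order of these genes rests on medians alone. In CA3 PNs, Kcna1, an axonal Kv1 channel, had 76.3 TPM (28.7 to 117 over 26 libraries), Kcnc1 46.0 TPM and Kcnc2 41.9 TPM. DGCs had Kcna1 at 63.0 TPM (21.7 to 84.7 over 28 libraries), Kcnd2 at 50.4 TPM and Kcnq3 at 42.2 TPM. Thus Kcnh7, an Erg channel, stood among the highest members of CA1 PNs alone, ranking 5 there, 30 in CA3 PNs and 21 in DGCs.

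**Figure D1:**
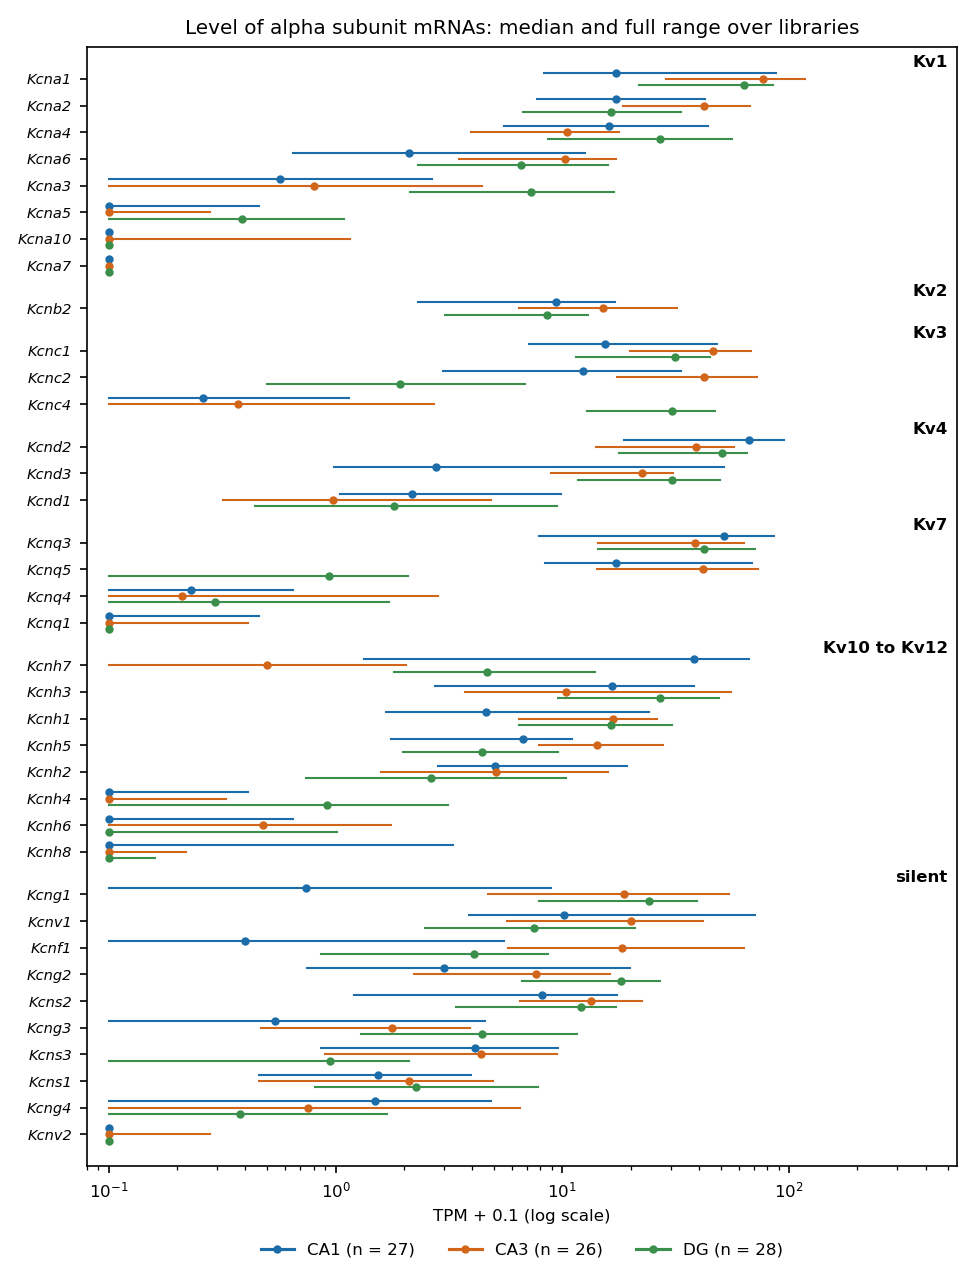
Level of 37 Kv alpha subunit mRNAs (y axis, ordered by family and by highest median) in TPM + 0.1 on a log scale (x axis), with a point for the median and a line for the full range over 27 CA1 PN, 26 CA3 PN and 28 DGC libraries. Kcnc4 and Kcnq5 show the widest separation of DGCs from the pyramidal populations, and Kcnh7 the widest separation of CA1 PNs from CA3 PNs.

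Each population had a different mix of families, taken as the share of the members' summed TPM. Kv7 genes made up a median of 31.4% in CA1 PNs (22.5 to 35.2%), but 18.1% in DGCs (15.6 to 20.0%), with 29.1% (23.0 to 34.2%) for CA3 PNs. Only the DGC range lies apart from both others. Kv1 genes held 9.78, 18.6 and 18.6% for CA1 PNs, CA3 PNs and DGCs. Kv3 genes held 12.5, 19.4 and 22.1% and Kv4 genes 13.3, 7.87 and 12.8% in the same order. Kcnh genes took 15.2% in CA1 PNs, where the share ran from 6.42 to 19.0%, and 6.38 and 8.87% in CA3 PNs and DGCs. The silent subunits took 5.85, 11.4 and 11.1%. The summed TPM of the members varied widely between libraries, from 161 to 884 in CA1 PNs, 290 to 1088 in CA3 PNs and 237 to 901 in DGCs, so the shares are steadier than the sums.

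At the other end, several members were hardly seen. Kcna7, a Kv1 gene known from muscle, had 0 counts in all 81 libraries, and 3 counts would be 0.097 CPM of the pooled CA1, 0.0693 of the pooled CA3 and 0.11 of the pooled DGC counts. Kcna10 had 1 count and Kcnv2, a silent subunit known from photoreceptors, had 2, all in CA3 PNs. Kcnq1, the cardiac and epithelial Kv7 channel, had 2 counts in each of the pyramidal populations and 0 in DGCs, while Kcnq1ot1, the antisense transcript inside it, had 36993 counts over all libraries. Kcna5 had 23 counts in DGCs beside 3 and 2 in CA1 and CA3 PNs. Kcnh8, an Elk channel, had 55 counts in CA1 PNs and 1 in each of the other populations, although 16 of the 27 CA1 libraries had none. Its highest CPM was 9.81 in the 10 CA1 libraries with CA2 markers over the limit and 2.08 in the other 17, and the part of CA2 cells in this was not tested. These 6 genes did not pass the filter on low values (more than 0.1 CPM in 10 or more of the libraries compared) in any comparison of populations, Kcnh4 and Kcnh6 passed in some of the mouse groups, and the other 32 members passed in all.

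To ask how the populations differ, they were compared within each group of mice with edgeR's quasi-likelihood test, with p-values adjusted (Benjamini-Hochberg) over all genes tested. In 2N ChN mice, 33 members were tested. The first comparison, CA1 against CA3 PNs, called 19 members (6 up, 13 down) and 23.3% of all genes tested. CA1 PNs against DGCs called 22 members (11 up, 11 down) and 34.3% of all genes. CA3 PNs against DGCs called 19 members (11 up, 8 down) and 43.7% of all genes. The median log2 fold change (LFC) of the members tested was -0.48, -0.28 and 0.20 in the 3 comparisons, and that of all genes was 0.00, -0.03 and -0.04. The members that passed the filter include some that passed only through the population where they are high, so these counts describe the members and are no test of the family. The captured tissue also holds other cells, and in bulk samples fewer cells of a type and less RNA per cell cannot be told apart.

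Without the CA1 libraries over the CA2 marker limit, the members that differed in 2N ChN mice were 24, 24 and 24 in the 3 comparisons. No share of all genes was taken for these fits, so the counts cannot be set against those of other genes. The populations were fitted together, so leaving out CA1 libraries also changes the test of CA3 PNs against DGCs. In the other mouse groups the counts were 21 of 33 (CA1 against CA3 PNs), 25 (CA1 PNs against DGCs) and 22 (CA3 PNs against DGCs) in Ts ChN mice, beside 25.3, 33.7 and 44.5% of all genes. In 2N ChP mice they were 19, 23 and 21 of 32, beside 22.9, 31.8 and 40.4%, and in Ts ChP mice 23, 26 and 24 of 34, beside 24.5, 39.3 and 44.2%. The 4 groups hold different mice, and 16 members differed in all 4 with the same direction in the first comparison (5 up, 11 down), 17 in the second (8 up, 9 down) and 19 in the third (11 up, 8 down). Of all genes tested in the 4 groups, 14.7, 22.3 and 30.3% did. In all, 25 members differed in all 4 groups in at least 1 of the comparisons (38.5% of all genes), and 6 in all 3 of them (4.28%).

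Of the Kv1 subunits, which line axons and set the threshold for spikes, Kcna1 and Kcna6 were lower in CA1 PNs than in the other populations. Kcna1 ran from 51.3 to 219 CPM in CA1 PNs of 2N ChN mice (median 71.3), from 238 to 293 (252) in CA3 PNs and from 189 to 235 (213) in DGCs, so CA1 and CA3 libraries did not overlap. Its LFC in CA1 against CA3 PNs was -1.38 ± 0.26 (SE; adjusted p = 0.000692), and was -1.62 to -1.19 over the 4 mouse groups. Kcna6 had median CPM of 4.58 (CA1 PNs), 46.5 (CA3 PNs) and 31.4 (DGCs), and was lower in CA1 than in CA3 PNs at an LFC of -2.21 ± 0.32 (adjusted p = 1.14e-05). Kcna2 peaked in CA3 PNs, with 340 to 423 CPM against 117 to 164 in DGCs (LFC of 1.47 ± 0.14, adjusted p = 1.05e-09). Kcna4, the A-type member of the family, showed the reverse, with 32.8 to 49.0 CPM in CA3 PNs and 89.1 to 147 in DGCs (LFC of -1.46 ± 0.17, adjusted p = 2.13e-08). Kcna4 was also higher in CA1 than in CA3 PNs, with an LFC of 1.16.

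Kcna3, a Kv1 channel best known from T cells, was a gene of DGCs among these populations. In 2N ChN mice it ran from 8.40 to 21.8 CPM in DGCs, and from 0 to 2.82 in CA1 and 0 to 3.72 in CA3 PNs. The LFC was -3.01 ± 0.53 in CA1 PNs against DGCs (adjusted p = 1.96e-05) and -2.49 ± 0.45 in CA3 PNs against DGCs (adjusted p = 1.74e-05). Over all mice the lowest DGC library, at 5.41 CPM, was above the highest CA1 library, at 3.68, and the highest CA3 library, at 5.36. Kcna3 and Kcna2 lie next to each other on chromosome 3, at 106943485 to 106945386 and 107008237 to 107022321 (GRCm39), with Kcna10 beside them at 107090372 to 107103037 and Kcnc4 at 107345603 to 107367781. Kcna2 was highest in CA3 PNs, while Kcna3 and Kcnc4 were highest in DGCs.

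Kv3 subunits, the high-threshold channels of fast-spiking cells and presynaptic terminals, had opposite patterns in DGCs. Kcnc4 had 61.9 to 108 CPM in the DGCs of 2N ChN mice, with 0 to 2.23 in CA1 PNs and 0 to 2.79 in CA3 PNs. Its LFC was -6.43 ± 0.36 in CA1 PNs against DGCs (adjusted p = 1.86e-16) and -5.86 ± 0.30 in CA3 PNs against DGCs (adjusted p = 9.37e-18). Kcnc2 went the other way, from 96.6 to 201 CPM in CA3 PNs over 36.4 to 58.0 in CA1 PNs to 0.812 to 12.6 in DGCs. The LFC of Kcnc2 was -1.53 ± 0.24 in CA1 against CA3 PNs (adjusted p = 4.93e-05), 3.09 ± 0.35 in CA1 PNs against DGCs (adjusted p = 5.87e-07) and 4.62 ± 0.32 in CA3 PNs against DGCs (adjusted p = 2.33e-10). Kcnc1 had median CPM of 80.7, 275 and 169 for CA1 PNs, CA3 PNs and DGCs, and was lower in CA1 than in CA3 PNs at an LFC of -1.30 ± 0.26 (adjusted p = 0.0013). Kcnc1 and Kcnc2 are also well known from interneurons, and in 2N ChN mice the mean log2 CPM of 8 inhibitory neuron markers had medians of 4.51 for CA3 PNs, 4.19 for CA1 PNs and 2.98 for DGCs, the same order as Kcnc2. Over all mice the medians were 3.82, 4.21 and 3.04, with CA1 PNs above CA3 PNs. Single markers did not share an order, with median CPM highest in DGCs for Gad1 (195), in CA3 PNs for Sst (33.5) and in CA1 PNs for Pvalb (11.6). The part of interneuron mRNA in these results was not tested.

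Of the Kv4 subunits, which carry the A-type current of dendrites, Kcnd2 was highest and Kcnd3 lowest in CA1 PNs. Both had lower medians in CA3 PNs than in DGCs, but Kcnd3 did not pass the test between these populations in 2N ChN mice. Its CA3 and DGC libraries did not overlap in these mice. The populations were fitted together, so the wide spread of Kcnd3 in CA1 libraries enters this test too. Kcnd2 ran from 302 to 478 CPM in the CA1 PNs of 2N ChN mice and from 176 to 227 in CA3 PNs (LFC of 1.07), and over all mice no CA1 library (237 CPM or more) fell to the level of a CA3 library (227 or less). Gm42583, an unconfirmed transcript inside Kcnd2 on the same strand, had 4288 counts beside the 26090 of Kcnd2. Kcnd3 had 10.4 to 87.1 CPM in CA1 PNs (median 16.6), against 81.7 to 118 for CA3 PNs and 148 to 189 for DGCs. The LFC of Kcnd3 was -1.74 ± 0.36 in CA1 against CA3 PNs (adjusted p = 0.00172) and -2.44 ± 0.36 against DGCs (adjusted p = 4.41e-05). The value of 87.1 CPM belongs to the library of mouse 17-21, in which CA2 markers were high and CA1 markers low. Without the CA2-rich libraries the LFC of Kcnd3 was -2.84 and -3.52. Kcnd1, on the X chromosome, was the scarcest of the 3, with 5.19 to 12.6 CPM in CA1 PNs and 1.63 to 5.13 in CA3 PNs (LFC of 1.61 ± 0.37, adjusted p = 0.00108). Kcnb2, a Kv2 delayed rectifier, was higher in CA3 PNs than in DGCs (LFC of 0.86).

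Kv7 genes differed mainly through Kcnq5, the third neuronal M-channel subunit, which was nearly absent from DGCs. In 2N ChN mice it ran from 71.9 to 222 CPM in CA1 PNs, from 117 to 212 in CA3 PNs and from 0.948 to 6.27 in DGCs. The LFC was 4.96 ± 0.42 in CA1 PNs against DGCs (adjusted p = 5.68e-08) and 5.43 ± 0.41 in CA3 PNs against DGCs (adjusted p = 8.01e-09), with ranges of 4.88 to 5.19 and 5.43 to 5.94 over the 4 mouse groups. Kcnq3 did not pass the test in any of the 3 comparisons in 2N ChN mice. It ran from 112 to 898 CPM in CA1 PNs, a spread wider than in CA3 PNs (314 to 415) or DGCs (328 to 465). The lowest of these CA1 values was among the libraries with CA2 markers over the limit, where Kcnq3 had a median of 408 CPM, against 752 in the other 17. Without them Kcnq3 passed the test, with an LFC of 1.06 for CA1 against CA3 PNs and 0.95 for CA1 PNs against DGCs.

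Among the Kcnh genes, Kcnh7 had the largest LFC of CA1 against CA3 PNs, close in size to that of Kcnf1. It had 474.9 CPM at the median of CA1 PNs in 2N ChN mice, with 5 libraries from 326 to 570 and mouse 17-21 at 28.6. CA3 PNs had 3.27 to 6.01 CPM and DGCs 10.4 to 33.7. The LFC was 6.55 ± 0.61 in CA1 against CA3 PNs (adjusted p = 4.95e-07), 4.10 ± 0.51 in CA1 PNs against DGCs (adjusted p = 7.77e-06) and -2.45 ± 0.72 in CA3 PNs against DGCs (adjusted p = 0.0114). Over the other mouse groups the first of these ran from 6.40 to 7.95. Kcnh6, a second Erg gene, had 1 count in the 6 CA1 libraries and 20 in the 6 CA3 libraries of 2N ChN mice, a ratio per count total of 9.79 for CA3 to CA1 PNs (exact 95% interval of 1.57 to 406, for counting error only), and the fitted LFC of CA1 against CA3 PNs was -2.89 ± 0.91 (adjusted p = 0.0173). Kcnh5, an Eag channel, was high in CA3 PNs, with 37.6 to 99.0 CPM against 9.48 to 27.5 in DGCs (LFC of 1.79 ± 0.31, adjusted p = 8.02e-05). Kcnh3, an Elk channel, was lower in CA3 PNs than in CA1 PNs (LFC of 0.75 in CA1 against CA3 PNs) and than in DGCs (LFC of -1.22). Kcnh2 was lower in DGCs than in CA1 (1.68) or CA3 PNs (1.20).

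**Figure D2:**
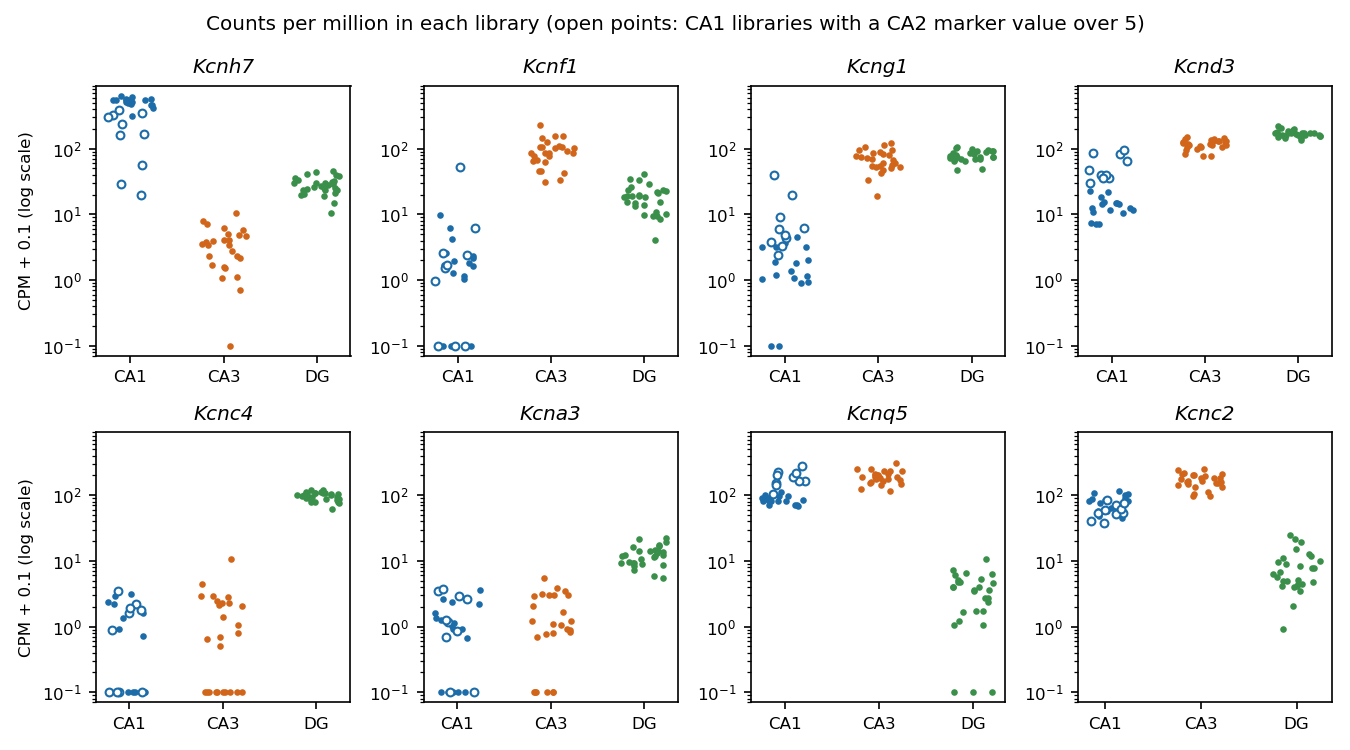
CPM + 0.1 on a log scale (y axis) of 8 members in each of the 81 libraries, by population (x axis), with open points for the 10 CA1 PN libraries whose CA2 marker mean was over 5. Kcnc4 and Kcna3 lie highest in DGCs, Kcnq5 and Kcnc2 lowest, and the open points of Kcnh7 and Kcnd3 lie between most CA1 and CA3 PN points.

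The silent subunits gave some of the sharpest contrasts. Kcnf1 ran from 44.9 to 228 CPM in the CA3 PNs of 2N ChN mice, from 9.45 to 40.8 in DGCs and from 0 to 2.50 in CA1 PNs, so no populations overlapped. Its LFC was -6.39 ± 0.64 in CA1 against CA3 PNs (adjusted p = 1.1e-06), -3.997 ± 0.80 in CA1 PNs against DGCs (adjusted p = 0.000863) and 2.39 ± 0.40 in CA3 PNs against DGCs (adjusted p = 0.000116). The first of these narrowed to -3.42 in Ts ChP mice, whose CA1 libraries include the one high value of Kcnf1 (51.9 CPM, among those with CA2 markers over the limit). In CA1 PNs against DGCs Kcnf1 did not pass in Ts ChP mice (-1.16), and passed there without the CA2-rich libraries (-3.92). Kcng1 had 0.959 to 9.16 CPM in CA1 PNs, where CA3 PNs had 66.3 to 123 and DGCs 47.8 to 103. The LFC of Kcng1 was -4.70 ± 0.33 in CA1 against CA3 PNs (adjusted p = 1.21e-10) and -4.50 ± 0.34 against DGCs (adjusted p = 1.93e-10), and CA3 PNs and DGCs did not differ by the test. Kcns3 was low in DGCs (0 to 3.13 CPM), with an LFC of 2.76 ± 0.50 in CA1 PNs (adjusted p = 2.81e-05) and 2.93 ± 0.47 in CA3 PNs (adjusted p = 3.21e-06). Kcng4 was higher in CA1 PNs than in DGCs at an LFC of 2.16 ± 0.85 (adjusted p = 0.0489), a call that was lost under 9 of 14 alternatives, among them the mouse as a block (LFC of 2.06) and the fit without the CA2-rich libraries (1.54). Kcnv1 was higher in CA1 (1.42) and CA3 PNs (1.39) than in DGCs, and Kcng2 and Kcng3 were lower in CA1 PNs than in DGCs (-1.40 and -1.79).

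**Figure D3:**
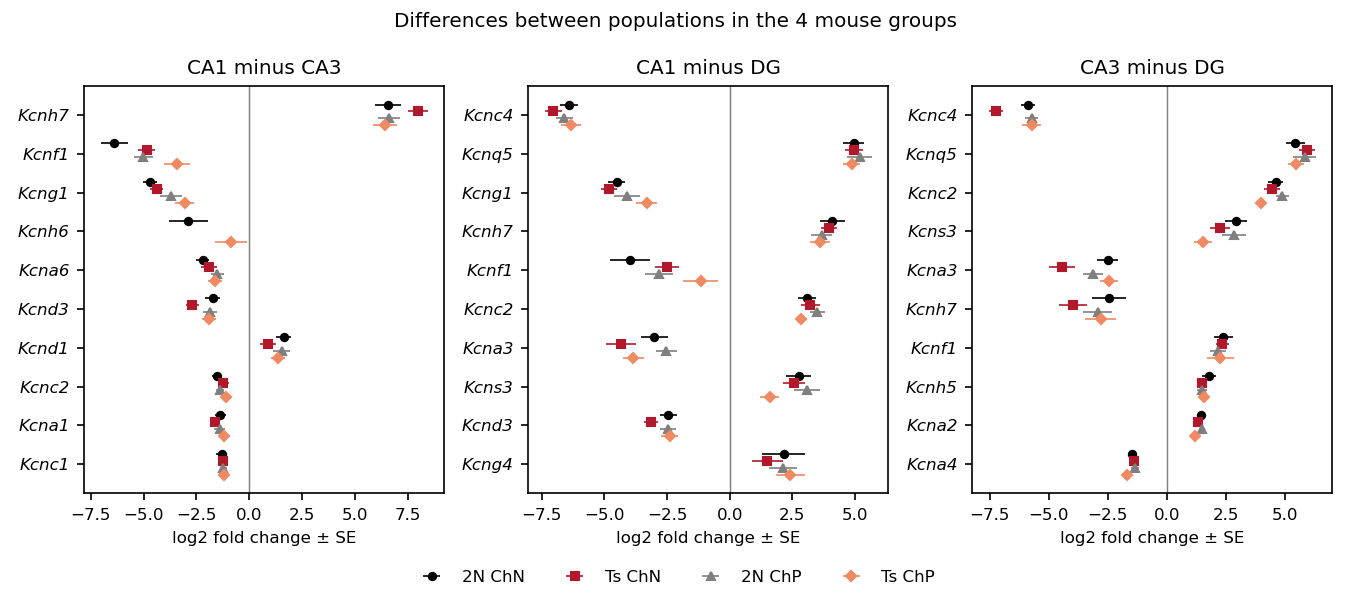
LFC ± SE (x axis) of members with the largest differences in 2N ChN mice (y axis) for each pair of populations, shown for the 4 mouse groups, with values right of 0 higher in the first population named. For CA1 PNs against DGCs, Kcnc4, Kcnq5 and Kcnh7 stay beyond 3 in size in the 4 groups, and Kcnf1 is closer to 0 in Ts ChP than in 2N ChN mice in both comparisons with CA1 PNs.

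Other members that differed in 2N ChN mice had smaller LFC. Between CA1 and CA3 PNs, Kcnh5 (-0.96), Kcna2 (-0.93) and Kcns2 (-0.47) were lower in CA1 PNs. In CA1 PNs against DGCs, Kcna6 (-1.57), Kcna1 (-1.14) and Kcnh3 (-0.46) were lower, and Kcnd1 (1.07), Kcnd2 (0.80) and Kcna2 (0.55) were higher. In CA3 PNs against DGCs, Kcnc1 (0.72) was higher and Kcnd2 (-0.27) was lower. The calls of Kcns2 between CA1 and CA3 PNs (-0.27 in place of -0.47) and of Kcnd1 (0.98), Kcnh3 (-0.28) and Kcnv1 (0.34) in CA1 PNs against DGCs were lost without the CA2-rich libraries. With those left out, Kcnh1 (-1.91), Kcnq5 (-1.002), Kcnv1 (-1.06), Kcng2 (-1.30) and Kcng3 (-2.60) passed as lower in CA1 than in CA3 PNs. With the mouse as a block, Kcnh5 lost its call between CA1 and CA3 PNs (-0.92). The call of Kcnh7 in CA3 PNs against DGCs was lost with limma-voom (-2.36). Across all 81 libraries without regard to genotype or diet, 2 members (Kcnd2 and Kcnh7) did not overlap between CA1 and CA3 PNs, where 1.95% of all genes did not, 8 did not overlap between CA1 PNs and DGCs (4.74% of all genes) and 12 between CA3 PNs and DGCs (8.19%).

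The CA1 libraries with CA2 markers over the limit differed from the other CA1 libraries in many members, given here by range and without a test, since these 10 libraries were set apart from the data. Kcnd3 had 29.8 to 95.7 CPM in them and 7.02 to 22.5 in the other 17, with no overlap. Kcna1 had 98.1 to 257 CPM against 37.3 to 75.0, Kcna6 13.0 to 42.9 against 3.34 to 10.5, and Kcnh1, an Eag channel, 50.8 to 196 against 13.4 to 43.8, each with no overlap. Kcnh7 was lower, with 19.8 to 388 CPM against 318 to 626. Kcnc2 (38.0 to 85.0 against 36.4 to 117) had ranges that overlapped. The 10 libraries also held more CA3 and less CA1 marker mRNA, and the part of each cell type was not tested.

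The 3 genes with the largest differences, Kcnh7 (high in CA1 PNs), Kcnf1 (high in CA3 PNs) and Kcnc4 (high in DGCs), are shown with the 300 bases around their start sites, 250 before and 50 after, since their mRNA levels part the populations most. Sequences are RefSeq's on build GRCm38.p6, 5′ to 3′ on the gene's strand, which is the minus strand for all 3, and capitals mark a GC box (GGGCGG or, on the other strand, CCGCCC). The windows are chr2:63184238-63184537 for Kcnh7, chr12:17176839-17177138 for Kcnf1 and chr3:107458849-107459148 for Kcnc4.
Kcnh7: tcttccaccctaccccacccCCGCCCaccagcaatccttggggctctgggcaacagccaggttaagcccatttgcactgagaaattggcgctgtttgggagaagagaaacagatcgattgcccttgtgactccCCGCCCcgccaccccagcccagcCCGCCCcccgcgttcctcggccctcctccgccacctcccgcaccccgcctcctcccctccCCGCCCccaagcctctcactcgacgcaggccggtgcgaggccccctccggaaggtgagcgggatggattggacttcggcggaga
Kcnf1: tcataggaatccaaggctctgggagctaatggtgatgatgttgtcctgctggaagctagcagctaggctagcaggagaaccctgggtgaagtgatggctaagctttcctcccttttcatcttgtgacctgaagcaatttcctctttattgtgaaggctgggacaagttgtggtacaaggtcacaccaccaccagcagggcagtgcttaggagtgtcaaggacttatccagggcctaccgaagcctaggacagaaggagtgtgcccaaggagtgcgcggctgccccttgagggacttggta
Kcnc4: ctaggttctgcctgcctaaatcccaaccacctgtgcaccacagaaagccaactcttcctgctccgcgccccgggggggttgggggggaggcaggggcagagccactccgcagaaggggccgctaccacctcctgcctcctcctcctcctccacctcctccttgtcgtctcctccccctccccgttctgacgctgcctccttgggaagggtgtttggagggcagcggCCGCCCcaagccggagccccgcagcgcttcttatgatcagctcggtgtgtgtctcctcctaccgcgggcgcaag
The GC box occurred 4 times in the window of Kcnh7, 1 time in that of Kcnc4 and not in that of Kcnf1. It was in 18 of the 30 windows that the table holds for 25 of the members, and in 35.7% of all 32841 windows. Neither a TATA box (TATAAA on either strand, in 13.6% of all windows) nor a cAMP response element (TGACGTCA, in 1.79%) was found in the members' windows. The median GC content was 64.6% in the members' windows and 52.7% in all.

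To ask whether trisomy changes these mRNAs, Ts were compared with 2N mice within each population and diet, with the study's threshold of an unadjusted p under 0.05. No member passed after adjustment over all genes in any population or diet by edgeR, where 0.00814, 0.662 and 0.588% of all genes did for CA1 PNs, CA3 PNs and DGCs on the normal diet, and 0.049, 0.249 and 0.445% on the supplemented diet. On the normal diet, 2 of 27 members tested passed the unadjusted threshold in CA1 PNs (3.77% of all genes did), with 8 of 30 for CA3 PNs (9.2%) and 3 of 30 for DGCs (8.5%). On the supplemented diet, 1 of 30 passed in CA1 PNs (3.6%), with 4 of 31 for CA3 PNs (4.99%) and 4 of 32 for DGCs (7.6%). As a share of the members tested, these counts are 7.41, 26.7 and 10% on the normal diet and 3.33, 12.9 and 12.5% on the supplemented diet. Under its own label, the library of mouse 15-145 would leave 4 members in place of 8.

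In CA3 PNs on the normal diet, 4 members were higher and 4 lower in Ts mice. The mean log2 CPM of the 8 inhibitory neuron markers had a median of 3.504 (3.28 to 3.76) in the same Ts libraries and of 4.51 (3.48 to 4.80) in 2N libraries, and its part in these results was not tested. Kcnd3 had 119 to 143 CPM in Ts and 81.7 to 118 in 2N mice, with no overlap (LFC of 0.31 ± 0.09, adjusted p = 0.105). The Kv7 genes Kcnq3 (376 to 482 CPM against 314 to 415, LFC of 0.25 ± 0.07, adjusted p = 0.11) and Kcnq5 (167 to 253 against 117 to 212, LFC of 0.36 ± 0.12, adjusted p = 0.285) were higher together, with ranges that overlapped. Under its own label for mouse 15-145, the LFC of Kcnq3 and Kcnd3 stayed past the threshold (0.23 and 0.32), and that of Kcnq5 did not (0.26), nor did those of Kcna2 (-0.11) and Kcnh7 (-0.92). Kcna2 (LFC of -0.16 ± 0.07, adjusted p = 0.415) and Kcnd2 (-0.19 ± 0.09, adjusted p = 0.462) were lower by little. Kcng2, a silent subunit, fell from a median of 19.9 CPM in 2N to 14.9 in Ts mice (LFC of -0.48 ± 0.23, adjusted p = 0.518), and Kcnh7, which is scarce in CA3 PNs, had 0 to 5.01 CPM in Ts and 3.27 to 6.01 in 2N mice (LFC of -1.19 ± 0.49, adjusted p = 0.409).

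On the supplemented diet, in other mice, the members past the threshold in CA3 PNs were all lower in Ts mice. Kcng2 ran from 10.8 to 22.2 CPM in Ts and from 18.3 to 34.3 in 2N mice (LFC of -0.69 ± 0.20, adjusted p = 0.237). Kcna2 ran from 288 to 379 in Ts and from 344 to 421 in 2N mice (LFC of -0.24 ± 0.07, adjusted p = 0.393). Kcnc1 (LFC of -0.18 ± 0.07, adjusted p = 0.816) was lower as well, and lost its call without the CA3 library of mouse 15-140 (LFC of -0.15). Of the 30 members tested in CA3 PNs on both diets, Kcna2 and Kcng2 passed the threshold on both, in the same direction. With mouse 15-145 under its own label this held for Kcng2 (LFC of -0.62 on the normal diet) but not for Kcna2 (-0.11). The share of all genes that passed on both diets was not taken. The normal diet call of Kcng2 was lost under 10 of 19 alternatives, among them DESeq2, limma-voom and the fit without mouse 16-357. Kcng2 overlaps Slc66a2 on the opposite strand, with 1600 counts for Slc66a2 and 2299 for Kcng2 over all libraries.

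In DGCs on the normal diet, Kcnh1 rose from 109.5 to 121 CPM in 2N mice to 118 to 156 in Ts mice (LFC of 0.30 ± 0.09, adjusted p = 0.163), and Kcnd1 was higher (LFC of 0.86 ± 0.38, adjusted p = 0.521). The call of Kcnd1 was lost under 6 of 18 alternatives. On the supplemented diet Kcng2 ran from 23.3 to 39.1 CPM in Ts and from 30.4 to 60.5 in 2N mice (LFC of -0.52 ± 0.15, adjusted p = 0.0842), the smallest adjusted p of any member in a comparison of genotypes. Kcnh3 was lower (LFC of -0.38 ± 0.12, adjusted p = 0.199) and Kcna4 higher (0.22 ± 0.10, adjusted p = 0.525). The DGC and CA3 libraries come from the same mice, so the lower Kcng2 in both is not independent evidence.

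**Figure D4:**
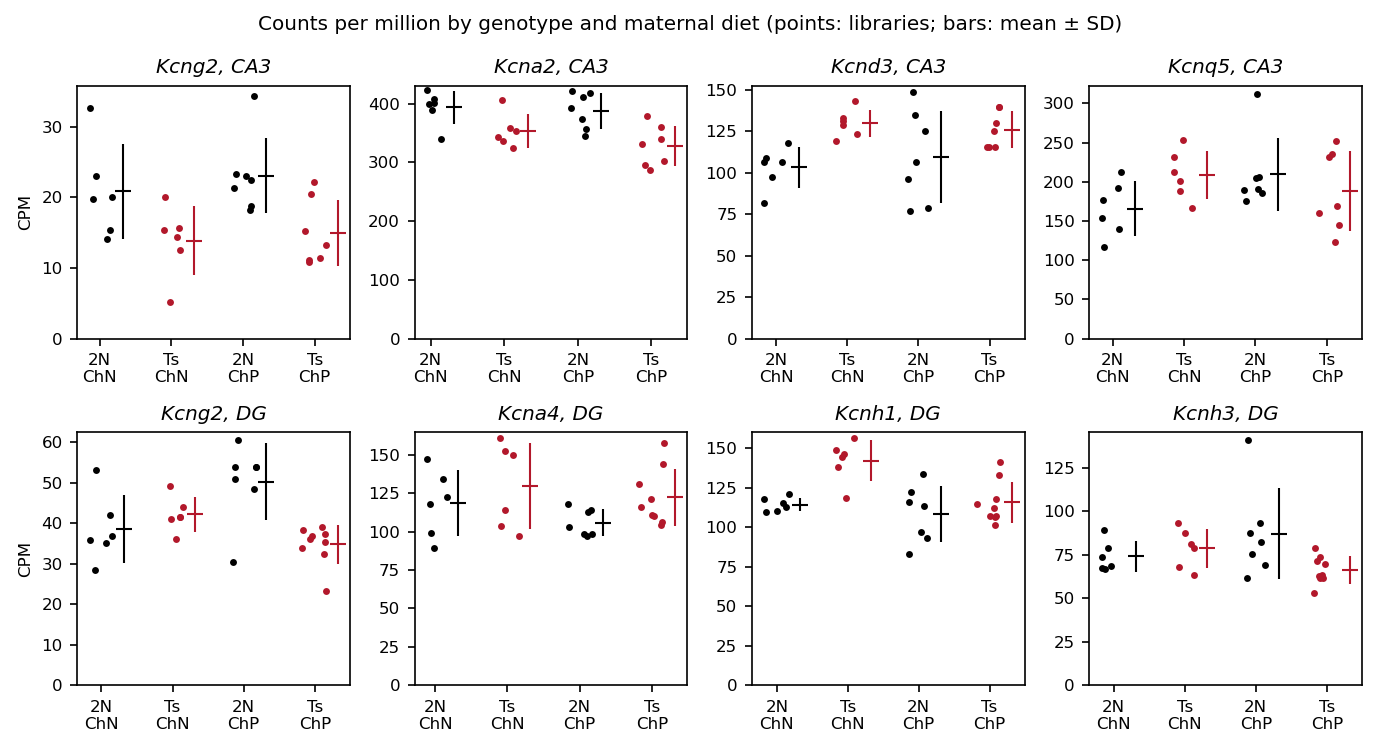
CPM (y axis, from 0) of 7 members past the unadjusted threshold between genotypes, 4 for CA3 PNs (top) and 4 for DGCs (bottom, Kcng2 in both), by genotype and diet (x axis), with a point for each library and bars for mean ± SD. Kcng2 is lower in Ts than in 2N mice on both diets in CA3 PNs and on the supplemented diet in DGCs, with ranges that overlap.

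CA1 PNs had few members past the threshold. On the normal diet, the 2N side holds the library inside the Ts range of the chromosome 16 segment. It also holds the library of mouse 17-21, in which CA1 markers were low. With both left out, the call of Kcnc2 on the normal diet stayed. Kcnc2 was higher in Ts ChN mice, with 84.96, 57.8, 44.8, 100.6 and 63.4 CPM in the 5 libraries against 36.4 to 58.0 in the 6 of 2N mice (LFC of 0.51 ± 0.20, adjusted p = 1), and lost its call without the CA2-rich libraries (LFC of 0.40). Kcns1, a silent subunit, had 7.08, 4.30, 6.15, 7.26 and 9.68 CPM in Ts mice and 1.11 to 5.00 in 2N mice (LFC of 0.99 ± 0.40, adjusted p = 1). On the supplemented diet, Kcna3 was lower in Ts mice, at 0 to 1.17 CPM against 0.82 to 3.68 (LFC of -1.61 ± 0.54, adjusted p = 0.946), on 8 counts in the 9 Ts and 15 in the 7 2N libraries. At such counts the level of Kcna3 is set by single reads.

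The genotype effect was also compared between populations on the normal diet. No member passed the unadjusted threshold between CA1 and CA3 PNs (4.22% of all genes) or between CA1 PNs and DGCs (5.51%). Between CA3 PNs and DGCs 3 of 35 passed (5.18%), Kcna3 (difference in LFC of -1.97 ± 0.79, adjusted p = 0.912), Kcnc4 (-1.39 ± 0.68, adjusted p = 0.96) and Kcng1 (-0.65 ± 0.30, adjusted p = 0.957), and none passed after adjustment by edgeR (0.0056% of all genes). Kcna3 and Kcnc4 did not pass the filter on low values in CA3 PNs alone and were tested here through DGCs, where they are high. In CA3 PNs Kcna3 had 29 counts in the 6 2N and 4 in the 6 Ts libraries, and Kcnc4 had 18 and 5, with 3 Ts libraries at 0 for each, so these differences rest on few reads. With mouse 15-145 under its own label Kcna3, Kcnc4 and Kcng1 lost their calls (-0.71, -0.50 and -0.60) and Kcnd2 passed (-0.27). With the mouse as a block, Kcnc4 did not pass (-1.33), while Kcnd2 did (-0.27), and Kcnh3 passed between CA1 and CA3 PNs (0.48).

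Maternal diet was compared within genotype. No member passed after adjustment by edgeR (0.012% of all genes in 2N CA3 PNs, 0.00605% in 2N DGCs and none elsewhere), and at the unadjusted threshold the members that passed were 1 of 34 in 2N CA1 PNs (3.27% of all genes), 0 of 34 in Ts CA1 PNs (3.05%), 2 of 33 in 2N CA3 PNs (4.9%), 3 of 33 in Ts CA3 PNs (4.19%), 1 of 35 in 2N DGCs (5.82%) and 3 of 35 in Ts DGCs (3.81%). Kcnc2 was higher with supplementation in both pyramidal populations of 2N mice. In CA1 PNs it ran from 38.0 to 117 CPM on the supplemented diet and from 36.4 to 58.0 on the normal diet (LFC of 0.62 ± 0.21, adjusted p = 1), and without the CA2-rich libraries the LFC was 0.94 ± 0.19 (adjusted p = 0.156). In CA3 PNs it ran from 146 to 239 against 96.6 to 201 CPM (LFC of 0.48 ± 0.19, adjusted p = 0.959). These populations share mice. The inhibitory marker mean had medians of 4.19 (ChN) and 4.26 (ChP) in 2N CA1 PNs and 4.51 and 3.81 in 2N CA3 PNs, and its part in these results was not tested. Kcnq5 was higher with supplementation in 2N CA3 PNs too (LFC of 0.37 ± 0.17, adjusted p = 0.994), a call that was lost with mouse 15-145 under its own label (0.34).

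In Ts mice, supplementation went with lower Kcna4 (LFC of -0.36 ± 0.14, adjusted p = 0.999) and higher Kcna3 (2.00 ± 0.78, adjusted p = 0.999) and Kcnh7 (1.27 ± 0.51, adjusted p = 0.999) in CA3 PNs. Kcna3 rests on 4 counts on the normal and 21 on the supplemented diet, and its call was lost with mouse 15-145 under its own label (LFC of 0.90). Kcnh7 lost its call without the CA3 library of mouse 15-140, which held dentate markers (LFC of 0.97). In DGCs Kcng2 was higher with supplementation in 2N mice (LFC of 0.39 ± 0.15, adjusted p = 0.775). In Ts DGCs Kcnh1 (-0.29 ± 0.09), Kcnh3 (-0.26 ± 0.11) and Kcnb2 (-0.27 ± 0.13) were lower, each with an adjusted p = 0.999. The call of Kcnb2 was lost under 4 of 5 alternatives, and that of Kcnh3 with DESeq2. The comparisons of genotype and of diet share groups of mice, so that a low Ts ChN value enters both.

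Whether diet changed the genotype effect was tested as an interaction. No member passed in CA1 PNs, 4 of 33 passed the unadjusted threshold in CA3 PNs (4.87% of all genes) and 2 of 35 in DGCs (3.97%), with 3.22% of all genes in CA1 PNs and none of the members after adjustment by edgeR. In DGCs, Kcng2 had a difference in LFC of -0.66 ± 0.21 (adjusted p = 1) and Kcnh3 of -0.47 ± 0.17 (adjusted p = 1). The medians of Kcng2 in DGCs were 36.3 CPM in 2N ChN, 41.4 in Ts ChN, 53.8 in 2N ChP and 36.0 in Ts ChP mice, so that the genotypes part on the supplemented diet. In CA3 PNs, Kcna3 (2.61 ± 1.0, adjusted p = 0.983) and Kcnh7 (1.44 ± 0.68, adjusted p = 0.983) had positive and Kcnq5 (-0.51 ± 0.24, adjusted p = 0.996) and Kcnq3 (-0.21 ± 0.11, adjusted p = 0.996) negative differences. All 4 calls in CA3 PNs were lost with mouse 15-145 under its own label, and those of Kcnh7 and Kcnq5 also without the CA3 library of mouse 15-140.

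The partners of these channels were followed as a list of 17 auxiliary genes, the cytoplasmic beta subunits (Kcnab), the Kv4 partners (Kcnip, Dpp6, Dpp10), the Kcne genes, and Amigo1, Lgi1 and Cntnap2, which act with Kv2 or Kv1 channels. None of Kcne1 to Kcne5 had a median above 0 TPM in any population. Kcnab2 was the highest of the list in all 3 populations, with 228, 288 and 138 TPM for CA1 PNs, CA3 PNs and DGCs, and Dpp6 followed with 96.3, 107 and 134 TPM. In 2N ChN mice, 5 of 12 tested passed in CA1 against CA3 PNs (4 up, 1 down), 8 of 12 in CA1 PNs against DGCs (5 up, 3 down) and 6 of 12 in CA3 PNs against DGCs (3 up, 3 down), and of 24 other potassium channel genes tested 14, 11 and 17 passed, beside 23.3, 34.3 and 43.7% of all genes. Kcnab3 (LFC of 2.20 ± 0.29, adjusted p = 1.41e-07) and Kcnab1 (1.52 ± 0.35, adjusted p = 0.00386) were higher in CA1 than in CA3 PNs, and Lgi1, whose product acts on Kv1 channels, was lower (-1.14 ± 0.32, adjusted p = 0.0162). Cntnap2, which holds Kv1 channels beside the nodes of axons, was higher in CA1 (3.75 ± 0.35, adjusted p = 3e-07) and CA3 PNs (3.66 ± 0.35, adjusted p = 2.49e-07) than in DGCs.

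Between genotypes, 1 auxiliary gene passed after adjustment. Kcnip2, which encodes a calcium-binding partner of Kv4 channels, was lower in Ts than in 2N DGCs on the normal diet (LFC of -0.41 ± 0.09, adjusted p = 0.00674), and it was lower on the supplemented diet at the unadjusted threshold (-0.27 ± 0.08, adjusted p = 0.14). Its genotype effect differed between CA3 PNs and DGCs at the unadjusted threshold (difference in LFC of 0.45 ± 0.13, adjusted p = 0.535). At the unadjusted threshold 1 auxiliary gene of 12 passed in CA1 PNs, 1 of 12 for CA3 PNs and 1 of 11 for DGCs on the normal diet (8.33, 8.33 and 9.09%, beside 3.77, 9.2 and 8.5% of all genes), and 0 of 12, 0 of 12 and 3 of 12 on the supplemented diet (beside 3.6, 4.99 and 7.6%). A list of 37 other potassium channel genes had 2 of 21, 2 of 21 and 5 of 20 on the normal diet and 3 of 22, 4 of 25 and 5 of 22 on the supplemented diet.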

How the data were processed

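Per the labels and the study's methods, the authors trimmed reads with Trimmomatic 0.39, checked them with FastQC 0.11.9 and Picard 2.26.2, aligned them with STAR to GRCm39 and quantified genes with RSEM. They deposited RSEM expected counts (unnormalized), TPM and FPKM per gene and library, and matrices of the same expected counts; the labels name mm10 beside GRCm39. Here expected counts were rounded (those of the 40 members were whole), and genes over 0.1 CPM in at least 10 libraries, or in all but 1 of fits with fewer than 11, entered edgeR 4.0.16 under R 4.3.3, with TMM, estimateDisp, robust glmQLFit and glmQLFTest, two-sided, with Benjamini-Hochberg adjustment. CPM are scaled with TMM over all libraries, and TPM compare genes. The study's covariates were not used. DESeq2 1.42.0, limma-voom 3.58.1, other filters and scalings, left-out libraries and a mouse block were alternatives, and the test was checked on simulated data.

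The members and lists were chosen with earlier results of these data known. Named are, per pair of populations, the 10 members with the largest LFC past the threshold in 2N ChN mice in full and the others by LFC, every member past the unadjusted threshold between genotypes and diets, and up to 4 auxiliary genes. Some members that these rules select are not reported here, though the counts include them. Populations share mice: libraries of 1 mouse had residuals correlated across genes at a median of 0.045 (78 pairs), against -0.008 between mice. Depth limits scarce members, and intervals cover counting error only. Each library pools the sections of 1 mouse, so p-values within a population measure the spread between mice. Between populations they measure the spread between libraries, since the main fits did not pair the libraries of a mouse. The diet was given to dams, so for diet the spread is between offspring and not between dams.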

Additional observations from a re-analysis of the deposited data

Results flagged for a closer look

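Of 58 pairs of a member and a group of mice, 6 held a library set apart from the rest of its group by Dixon's test. The nominal rate of the test is about 1 in 20. The pairs share members and libraries, so the count is not a test against that rate. Kcng2 accounts for 4 of the 6. In CA3 PNs of Ts ChN mice, mouse 16-357 had 5.14 CPM of Kcng2 and the others 12.6 to 20.0. In CA3 PNs of 2N ChP mice, mouse 15-296 had 34.3 CPM and the others 18.3 to 23.3. In DGCs, mouse 15-36 (Ts ChP) had 23.3 CPM with 32.5 to 39.1 in the others, and mouse 14-125 (2N ChP) had 30.4 CPM with 48.3 to 60.5 in the others. Kcnq5 was at 312 CPM in the CA3 library of mouse 15-296 as well, with 176 to 206 in the other 2N ChP mice. Kcnd2 was at 227 CPM in the CA3 library of mouse 17-21, with 176 to 193 in the other 2N ChN mice.

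The genotype effect differed between groups at the unadjusted threshold for 9 results, by edgeR's test of the difference itself, and none held after adjustment. On the normal diet it differed between CA3 PNs and DGCs for Kcna3 (difference in LFC of -1.97, adjusted p = 0.912), Kcnc4 (-1.39, adjusted p = 0.96) and Kcng1 (-0.65, adjusted p = 0.957). Kcna3 and Kcnc4 did not pass the filter on low values in CA3 PNs alone, where 3 of 6 Ts libraries were at 0 for each, so these differences rest on few reads. It differed between diets in CA3 PNs for Kcna3 (2.61, adjusted p = 0.983), Kcnh7 (1.44, adjusted p = 0.983), Kcnq3 (-0.21, adjusted p = 0.996) and Kcnq5 (-0.51, adjusted p = 0.996), and in DGCs for Kcng2 (-0.66, adjusted p = 1) and Kcnh3 (-0.47, adjusted p = 1).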

How the results depend on the processing

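Signs were checked for the members that the naming rules give in full or as past the unadjusted threshold. None changed under any alternative, and 923 of these checks kept the call while 78 lost it. Of the counts of members called, 301 stayed within 1.5 times their value and 41 did not, all of the latter counts of 0 to 8 members. With the CA3 library of mouse 15-145 under its own label, the genotype count on the normal diet in CA3 PNs was 4 (8), the diet count in 2N CA3 PNs 1 (2), the genotype by diet count in CA3 PNs 0 (4), and the genotype difference 1 (0) for CA1 against CA3 PNs and 1 (3) for CA3 PNs against DGCs, with the value as reported in parentheses here and below. With DESeq2 the counts were 1 (0) for the genotype difference of CA1 against CA3 PNs, 2 (1) for genotype on the supplemented diet in CA1 PNs and 1 (3) for diet in Ts DGCs. With limma-voom, genotype on the supplemented diet in CA1 PNs had 2 (1), diet in 2N CA1 PNs 2 (1) and diet in 2N CA3 PNs 4 (2). With edgeR's filterByExpr, genotype in CA1 PNs had 1 (2) on the normal and 0 (1) on the supplemented diet, diet in Ts CA3 PNs 1 (3) and genotype by diet in CA3 PNs 2 (4). Without a filter, genotype in CA1 PNs had 1 (2) and 2 (1), and the genotype difference of CA1 against CA3 PNs 2 (0). With library totals in place of TMM, genotype on the supplemented diet in CA1 PNs had 2 (1), and the genotype difference of CA1 PNs against DGCs 2 (0). Without the CA1 libraries of mouse 17-21 and of the 2N mouse in the Ts range, diet in 2N CA1 PNs had 4 (1), and the genotype differences with CA1 PNs 3 (0) and 1 (0). FPKM in place of TPM kept 9 of the 10 highest members in CA1 PNs and 9 of 10 in DGCs.

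Alternatives chosen after seeing the data left out the CA1 libraries over the CA2 marker limit, which gave 1 (2) for genotype on the normal diet, 2 (1) for diet in 2N mice, 3 (0) for diet in Ts mice and 1 (0) for genotype by diet, and the CA3 library of mouse 15-140, which gave 2 (4) for genotype by diet in CA3 PNs. With the mouse as a block, the members called between populations in 2N ChN mice were 18, 23 and 20, and the genotype difference of CA1 against CA3 PNs was 1 (0). Beside the calls given with the results, the block let Kcna4 (LFC of -0.33) and Kcnh1 (-1.13) pass between CA1 PNs and DGCs and Kcng3 (-1.07) between CA3 PNs and DGCs in 2N ChN mice, and it changed 11 calls of members between populations in the other groups of mice. Leaving out 1 mouse at a time gave 17 to 24, 18 to 26 and 16 to 23 members between populations in 2N ChN and 16 to 21, 19 to 25 and 18 to 27 in Ts ChN mice. For genotype on the normal diet it gave 1 to 3 in CA1 PNs, 5 to 10 in CA3 PNs and 2 to 5 in DGCs, on the supplemented diet 1 to 2, 3 to 7 and 3 to 6, for diet in Ts CA1 PNs 0 to 1, and for genotype by diet in CA1 PNs 0 throughout. The cause of these changes was not tested. Depth limits the members at a few counts per library, such as Kcna3 in pyramidal neurons, Kcng4 and Kcnh6.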
